A study of Populus ussuriensis with 18 samples.

Results

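Roots of *P. ussuriensis* kept for 96 h under low nitrogen (LN) conditions were compared with control roots sampled at 0 h, over every gene that reached an expression value of 1 FPKM in 3 or more of the 6 libraries. FPKM is the number of sequenced fragments of a gene, scaled by the gene's length and by the library's total of fragments counted on genes. Of 30485 genes listed, 23363 met this rule. The series holds 18 root libraries in 6 groups of 3 replicates, and the 6 libraries compared here are the 3 of the control and the 3 taken 96 h after transfer. All plantlets were wild type, clonally propagated in vitro, and rooted on medium with 10 mM nitrate and 5 mM ammonium. The control was sampled from that medium, while the LN roots had been moved to 0.05 mM nitrate and 0.025 mM ammonium. The control was taken only at 0 h, so the N supply, the transfer and the time since transfer changed together, and each group also carries its own batch label. These cannot be told apart.

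Plant roots take up inorganic N mainly as nitrate and ammonium through dedicated transporters. Nitrate is reduced to nitrite and then, by nitrite reductase in the plastid, to ammonium, which glutamine synthetase joins to glutamate. Many genes of nitrate transport and assimilation are known to be induced by nitrate itself, while high-affinity ammonium transporters are known to be induced when N is short.

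The libraries held 17149483 to 17517389 fragments counted on genes in the control and 17628164 to 18086580 at 96 h. At the median gene length of 1707 bp, 3 fragments correspond to about 0.1 FPKM. Replicates correlated across genes at r = 0.993 to 0.995 and libraries of different groups at 0.917 to 0.918. No pair of replicates was a duplicate, since their fragments differed by a chi-square per gene of 1.60 to 3.06, where sampling noise alone gives about 1, against 74.4 to 76.4 between groups. Of 16 root marker genes, none was at 0 in all 6 libraries. The same held for 29813 of the 30485 genes listed, so presence alone cannot check the labelled tissue. SHORT-ROOT (Potri.017G025900) and SCARECROW (Potri.006G114200) stood at 6.07 and 10.2 FPKM in the control. The summed level of these markers was 44.5 to 47.8 FPKM in the control and 50.9 to 52.7 FPKM at 96 h. Most of that net rise was in *SOMBRERO* (Potri.010G176600), a root cap regulator, at means of 1.66 and 5.68 FPKM, and 7 of the 16 did not pass the filter, among them the root hair gene *Expansin-A7* (Potri.001G112900) at 1.41 and 0.464 FPKM. The 14 plastid and photosynthesis genes summed to 622 to 639 FPKM in the control and 558 to 597 FPKM at 96 h. The part of these shifts in the results was not tested.

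The bulk of genes had higher FPKM values at 96 h. The median of log2(FPKM + 1) over all genes was 2.57 ± 0.022 (SD, n = 3) in the control and 2.84 ± 0.0048 (SD, n = 3) at 96 h, and the groups did not overlap. The exact permutation test, two-sided, gave p = 0.1, the smallest value that 3 libraries against 3 allow. Genes at 1 FPKM or more numbered 22037 to 22099 in the control and 23511 to 23533 at 96 h. The 100 most highly expressed genes of a library took 18.1% to 18.5% of all FPKM in the control and 13.5% to 13.7% at 96 h. FPKM values are relative within a library, and the amount of RNA per root was not analysed here.

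At an adjusted p under 0.05 and a change of at least 1 on the log2(FPKM + 1) scale, 1912 genes rose, 8.18% of those tested, and 429 fell, 1.84% (limma, Benjamini-Hochberg adjustment over all 23363 genes). The adjusted p alone was under 0.05 for 13800 genes, 59.1%. All fold changes below are differences on this scale, which understates the change of genes with low values. In 1912 of the genes that rose and 427 of those that fell, the 3 libraries of each group did not overlap, as in 65.8% of all genes tested. The rising genes were mostly weakly expressed in the control, with a median of 2.97 FPKM that became 11.5 FPKM, and together they went from 3.03% to 10.8% of all FPKM. The falling genes were mostly strongly expressed, with a median of 33.4 FPKM that became 10.9 FPKM, and they went from 10.4% to 3.52% of all FPKM. A change of at least 2 was reached by 437 rising and 76 falling genes, and of at least 3 by 134 and 21. The median change over all genes was 0.13, so a gene that matched the bulk of genes stands at that value. Of the calls, 81.7% were rises, against 67.6% after quantile normalization of the libraries, where 5.43% of genes rose and 2.6% fell and the median change was -0.07, and 72.3% after median-ratio scaling, where 6.45% rose and 2.47% fell and the median change was 0.00.

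**Figure D1:**
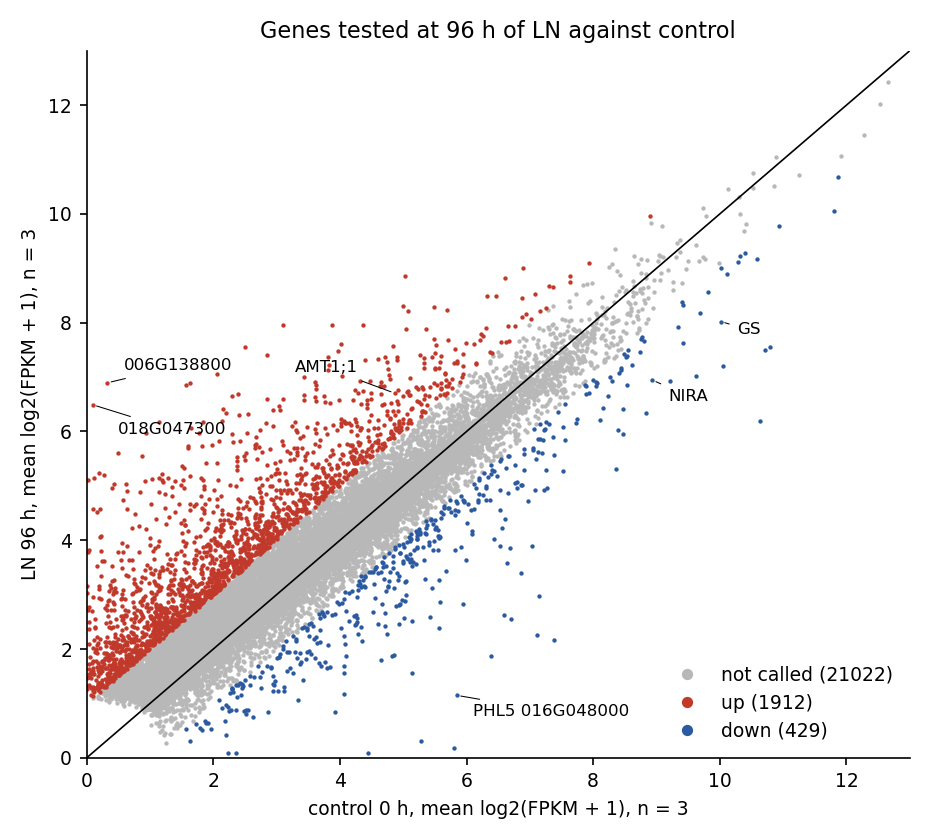
Mean log2(FPKM + 1) of each of the 23363 genes tested, control at 0 h on the horizontal axis and 96 h of LN on the vertical axis, n = 3 libraries each, with the line of equal values. The 1912 genes that rose lie mostly at the left, at low control values, and the 429 that fell extend to high control values.

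A nitrite reductase gene and a glutamine synthetase gene, whose enzymes turn nitrite into glutamine, both fell. *NIRA* (Potri.004G140800), the nitrite reductase, stood at 489, 477 and 495 FPKM in the 3 control libraries and at 127, 119 and 121 FPKM in the 3 LN libraries. The root glutamine synthetase Potri.004G085400 went from 1048, 1047 and 1007 FPKM to 257, 264 and 255 FPKM. In both genes every LN library lay far below every control library, and the control means were 3.98 and 4.0 times those at 96 h. *NIRA* fell by 1.98 ± 0.053 (SE) and glutamine synthetase by 1.99 ± 0.051, with adjusted p = 8.91e-08 and 7.63e-08 (limma, Benjamini-Hochberg). Both were also lower at 96 h than at 24 h, by log2 differences of -1.19 and -1.40, and higher at 96 h than at 336 h, by 1.35 and 1.79, all past the same thresholds. The mean level of *NIRA* was 281 FPKM at 24 h and 47.7 FPKM at 336 h, and that of glutamine synthetase 683 and 74.3 FPKM. The comparisons of 96 h with the control, with 24 h and with 336 h share the 96 h libraries.

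Among 16 tested enzymes and carriers of N assimilation and recycling, 4 fell, 2 rose and 10 were not called, with a median change of -0.05. The other members that fell were an N-terminal glutamine amidohydrolase (Potri.006G051500), which removes the amide nitrogen of glutamine at protein ends, and a fatty acid amide hydrolase (Potri.007G098600). The amidohydrolase went from 95.9, 79.7 and 81.3 FPKM to 16.7, 15 and 13.9 FPKM, a fall of 2.41 ± 0.094 (SE). The 2 members that rose were both described as ureide permease 2, a carrier known to move allantoin, an N-rich purine breakdown product, in Arabidopsis. Potri.008G095500 rose from a mean of 3.38 to 9.57 FPKM and Potri.008G095600 from 7.4 to 17 FPKM. Their changes of 1.27 and 1.11 became 0.9992 and 0.93 after quantile normalization, where neither was called, and Potri.008G095600 was also under the limit after median-ratio scaling, at 0.97, and without control replicate 3, at 0.99. These gene lists, here and below, were made from genes that the study picked on these same libraries, so their counts are not independent evidence of a direction. The shares over all genes tested, to be set beside each count against the control, were 8.18% up and 1.84% down. In the bulk of a whole root system, more or fewer cells of a type and more or less RNA per cell cannot be told apart.

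Of 23 nitrate and peptide transporters of the NPF family tested, 4 fell, beside 1.84% of all genes, and 17 were not called, with a median of -0.49. The 2 that rose, 1 after quantile normalization, were a share near the 8.18% of all genes. NPF7.3 is known in Arabidopsis to load nitrate into the xylem, and 3 copies were tested. *NPF7.3B* (Potri.003G088800) went from 46.2, 45.5 and 47.5 FPKM to 16.545, 16.3 and 14.9 FPKM, and *NPF7.3C* (Potri.014G179400) from 17.8, 19 and 19.6 FPKM to 8.26, 8.84 and 8.61 FPKM. Both fell, by 1.49 ± 0.059 and 1.05 ± 0.059 (SE). The most highly expressed copy, *NPF7.3A* (Potri.001G145200), stood at a mean of 136 FPKM in the control and 69.6 FPKM at 96 h, a change of -0.96 ± 0.051 that missed the fold limit although its groups did not overlap. *NPF7.3B* and *NPF7.3C* were higher at 336 h than at 96 h, with log2 differences of 96 h minus 336 h of -1.14 and -1.65.

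*NPF5.2* (Potri.010G068100) and *NPF5.8* (Potri.017G152800) fell from means of 35.2 to 13.1 FPKM and 24.4 to 11.1 FPKM. In the opposite direction, *NPF5.4* (Potri.001G027100) rose from 0.721, 0.156 and 0.614 FPKM to 7.55, 5.91 and 6.59 FPKM, a ratio of means of 13.4 and a change of 2.38 ± 0.15 (SE). The groups were clearly apart, with 48 fragments over the 3 control libraries and 668 over the 3 LN libraries. Its mean was already 19.3 FPKM at 12 h, and it was 0.322 FPKM at 336 h. *NPF2.10* (Potri.017G076800), whose Arabidopsis namesake carries glucosinolates, rose from 21.7 to 46.1 FPKM, a change of 1.06 that fell under the limit with quantile normalization, at 0.97, and with median-ratio scaling, at 0.91.

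Of 7 ammonium transporters tested, 4 rose and none fell, all 7 had a change above 0, and the median was 1.07. The largest change was that of the high-affinity carrier *AMT1;1* (Potri.010G063500), which stood at 27.7, 29.4 and 27.6 FPKM in the control and at 106, 100.5 and 103 FPKM at 96 h. The groups were far apart, and *AMT1;1* rose by 1.83 ± 0.054 (SE, adjusted p = 1.46e-07, limma). It was also higher at 96 h than at 24 h, by 1.11. *AMT1;2A* (Potri.019G023600), the most abundant of the named carriers in the control, stood at 157, 164 and 166 FPKM there and at 197, 195 and 198 FPKM at 96 h, a change of 0.27 ± 0.051 that was not called.

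The 3 other ammonium transporters that rose were weakly expressed. *AMT2;1* (Potri.006G102800) went from a mean of 7.39 to 16.51 FPKM and Potri.T000200, an AMT3 member, from 5.88 to 14.4 FPKM. Both lost their call under quantile normalization, at 0.89 and 0.97, so that 2 of the 7 were called there, and *AMT2;1* also under median-ratio scaling, at 0.93. Potri.001G305400, another AMT3 member, rose from 0.715, 0.425 and 0.874 FPKM to 3.86, 3.74 and 3.96 FPKM, a change of 1.55 ± 0.099 (SE). This gene was low in the control and still far from its later level, since its mean at 336 h was 34.8 FPKM and the difference of 96 h minus 336 h was -2.88. Copies of a family share sequence, so the split of fragments between near-identical members is uncertain, here and in the peroxidases, glutathione S-transferases, germin-like, GRAS and ERF genes below.

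Regulators of the nitrate response were lower at 96 h where limma called them on the log2(FPKM + 1) scale. Of 9 tested, 3 fell and none rose, with a median of -0.84. Limma-voom with median-ratio scaling tested 11 and called 6 down and 2 up. NLP proteins are nitrate-responsive transcription factors, and *NLP2* (Potri.001G293300) went from 227, 200.1 and 215 FPKM to 73.2, 76.1 and 71.9 FPKM. The groups did not overlap, and the gene fell by 1.52 ± 0.064 (SE). A further copy, Potri.009G087500, fell from a mean of 72.4 to 34.3 FPKM, whereas *NLP7* (Potri.001G087900), the master regulator in Arabidopsis, stood at 28.7 and 24.0 FPKM, a change of -0.25 that was not called.

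*LBD37* (Potri.005G145500), known in Arabidopsis as a repressor of N-responsive genes, fell from 82.0, 76.8 and 77.1 FPKM to 25.5, 26.3 and 25.8 FPKM, a fall of 1.57 ± 0.053 (SE). *TGA1A*, *TGA1B* and *TGA4* (Potri.005G082000, Potri.007G085700 and Potri.007G079900), bZIP factors of the nitrate response in Arabidopsis roots, had changes of -0.83, -0.85 and -0.84, all under the fold limit. For SnRK1, the kinase complex that is active when energy is short, 1 of 4 subunits rose and 1 fell. The γ subunit *SnRK1G1* (Potri.012G097000) fell from a mean of 52.7 to 25.6 FPKM, with a change of -1.01 that became -0.99 without control replicate 3 or without LN replicate 1. *SnRK1β2* (Potri.014G167400) rose from 2.47 to 6.45 FPKM, which quantile normalization and median-ratio scaling placed under the limit, at 0.79 and 0.98.

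**Figure D2:**
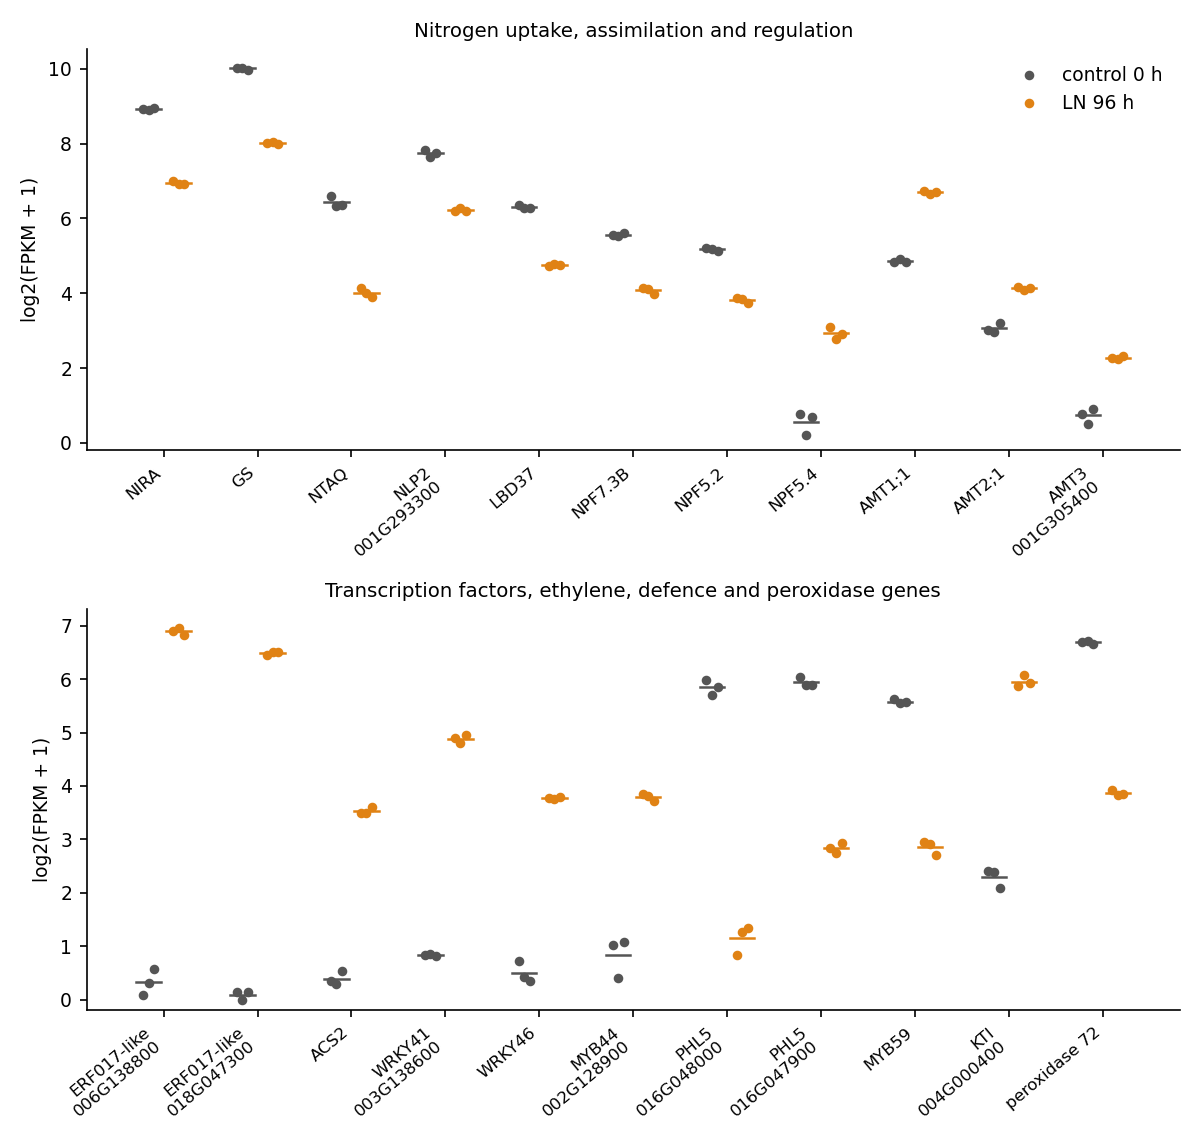
log2(FPKM + 1) of selected genes in each library, control at 0 h (grey) and 96 h of LN (orange), with 3 points and their mean (line) per group. No gene shown has overlapping groups, and the changes run from a rise of 6.57 in Potri.006G138800 to a fall of 4.70 in *PHL5* Potri.016G048000.

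Transcription factors of the AP2/ERF family, which includes the factors that act downstream of ethylene, held the gene with the largest rise of all 23363 tested. The transcription factor lists hold only genes that the study called differentially expressed on these libraries, not whole families. Of 71 listed members tested, 43 rose and 1 fell, with a median of 1.28. After quantile normalization 37 rose and 2 fell. Potri.006G138800, described as *ERF017*, stood at 0.0618, 0.245 and 0.484 FPKM in the control and at 119, 124 and 112 FPKM at 96 h. Potri.018G047300, with the same description, went from 0.104, 0 and 0.101 FPKM to 87.0, 89.9 and 90.1 FPKM. Both were barely detected in the control, with 13 and 4 fragments over its 3 libraries against 5990 and 5385 at 96 h. They rose by 6.57 ± 0.12 and 6.4 ± 0.06 (SE), with adjusted p = 1.86e-08 and 6.45e-09 (limma).

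The 2 other copies described as *ERF017* followed the same course. Potri.006G138700 rose to a mean of 36.5 FPKM and Potri.006G218200 to 33.3 FPKM, with 7 and 1 fragments in the control. All 4 copies were higher at 96 h than at 24 h, by 2.88 to 3.55, and than at 336 h, by 3.57 to 4.71. The means of Potri.006G138800 under LN were 66.0 FPKM (12 h), 9.21 (24 h), 19.3 (48 h), 118 (96 h) and 5.87 (336 h), so that the level was high at 12 h and 96 h and lower at the times between and after. Of the listed AP2/ERF members, 35 of 73 tested were higher at 96 h than at 24 h and 3 lower. Of all genes, which were not picked for a change, 3.87% were higher and 1.26% lower. Against 336 h, 37 of 75 were higher and 8 lower, where the shares of all genes were 4.96% and 2.71%.

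The listed AP2/ERF member that fell was described as *RAP2-3* (Potri.008G210900), of the group known for low-oxygen responses in Arabidopsis. It stood at 260, 271 and 257 FPKM in the control and at 117, 122 and 119 FPKM at 96 h, a fall of 1.13 ± 0.052 (SE). Potri.010G129200, described as the AP2/ERF and B3 domain repressor *TEM1* and listed in the B3 family, of which 7 of 20 rose and 1 fell, rose from 12.9, 12.9 and 11.7 FPKM to 102, 98.5 and 99.0 FPKM. The groups of *TEM1* were far apart, at a change of 2.9 ± 0.059, and its level at 336 h, 6.41 FPKM, was lower than at 96 h by a difference of 3.77. Both ethylene biosynthesis genes that the study names rose as well. *ACS2* (Potri.001G099400), whose product makes the ethylene precursor, rose from 0.275, 0.218 and 0.457 FPKM to 10.3, 10.3 and 11.1 FPKM, and *ACO1* (Potri.011G020900), whose product makes ethylene from it, from a mean of 1.28 to 5.88 FPKM. Their changes were 3.14 ± 0.078 and 1.61 ± 0.12 (SE).

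WRKY factors, many of which act in defence, rose in 16 of 28 cases, none fell, and the median was 1.13. After quantile normalization 10 rose and 1 fell. *WRKY41* (Potri.003G138600) went from 0.787, 0.816 and 0.770 FPKM to 28.8, 26.8 and 29.9 FPKM, a ratio of means of 36.1 and a change of 4.04 ± 0.059 (SE). *WRKY33* (Potri.016G128300), a regulator of pathogen defence in Arabidopsis, rose from 2.04, 1.94 and 1.77 FPKM to 29.9, 30.7 and 30.3 FPKM. Every LN library of these genes stood far above the highest control library.

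*WRKY18* (Potri.006G263600) rose from a mean of 5.36 to 53.6 FPKM, and *WRKY46* (Potri.002G168700), which the study names for root development and which is not on the list, from 0.416 to 12.8 FPKM. *WRKY75* (Potri.015G099200), known in Arabidopsis for phosphate starvation and root development, rose from 1.14 to 3.75 FPKM at 96 h and stood at 19.3 FPKM at 336 h. Its change at 96 h, 1.15, was under the limit after quantile normalization, at 0.78. *WRKY28* (Potri.005G203200), also named by the study, stood at 1.34 and 2.82 FPKM and was not called.

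MYB factors moved in both directions and held the largest fall over the genes of all lists. Of 73 tested, 27 rose and 4 fell, with a median of 0.65, and after quantile normalization 17 rose and 5 fell. *PHL5* (Potri.016G048000), a relative of the phosphate starvation regulator PHR1, went from 62.1, 51.1 and 56.6 FPKM to 0.785, 1.40 and 1.54 FPKM. A second copy, Potri.016G047900, went from 64.7, 58.5 and 58.5 FPKM to 6.13, 5.73 and 6.59 FPKM. The control was 45.5 times and 9.84 times the level at 96 h, and the genes fell by 4.70 ± 0.14 and 3.11 ± 0.07 (SE).

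*MYB59* (Potri.010G064000), described in Arabidopsis as a regulator of NPF7.3, fell from 48.2, 45.7 and 46.6 FPKM to 6.76, 6.55 and 5.49 FPKM, a change of -2.72 ± 0.077 (SE). Its means at 24 h and 336 h were 5.1 and 3.3 FPKM, and neither differed from 96 h past the fold limit. *MYB51* (Potri.008G089200) fell from a mean of 4.18 FPKM to 4 fragments over the 3 LN libraries. Of 9 genes described as *MYB44*, 5 rose and 4 were not called, and among those that rose Potri.002G128900 and Potri.014G035100 went from means of 0.818 to 12.8 FPKM and 0.695 to 8.82 FPKM. *MYB108* (Potri.014G117000) went from 0.380 to 7.32 FPKM. *MYB111* (Potri.014G122700), a flavonol regulator in Arabidopsis that is named by the study and not on the list, rose from 0.230 to 1.47 FPKM with a change of 1.004. It was under the limit after quantile normalization, at 0.70, after median-ratio scaling, at 0.94, and without control replicate 1 or 3 or LN replicate 1 or 3, at 0.96 to 0.998.

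NAC factors rose in 9 of 13 cases and 1 fell, with a median of 1.27. Of 6 genes described as *JUNGBRUNNEN 1*, a regulator of longevity and stress tolerance in Arabidopsis, 5 were tested and all 5 rose. Among them, Potri.003G149700 went from 9.36, 9.34 and 8.31 FPKM to 48.6, 47.2 and 49.1 FPKM, Potri.002G057200 from a mean of 4.71 to 17.401 FPKM and Potri.001G080900 from a mean of 0.515 to 7.53 FPKM. *NAC104* (Potri.007G105000), known in Arabidopsis to restrain xylem cell differentiation, fell from 9.01 to 2.59 FPKM, while another gene with that description, Potri.003G022800, rose by 1.04, and *NAC47* (Potri.019G031400) rose from 8.58 to 22 FPKM. Of 48 bHLH factors 12 rose and 2 fell, after quantile normalization 7 and 3. *ILR3* (Potri.011G030900), a regulator of iron homeostasis in Arabidopsis, fell from 146, 150 and 152 FPKM to 30.01, 28 and 29.8 FPKM, a change of -2.31 ± 0.055 (SE).

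Of 23 bZIP factors 4 rose and 2 fell, but after quantile normalization 2 rose and 4 fell. The 2 with the largest rises are known in Arabidopsis as membrane-bound factors of the unfolded protein response, which answers protein misfolding in the endoplasmic reticulum. *bZIP60* (Potri.005G257900) stood at 45.4, 47.8 and 47.8 FPKM in the control and at 154, 156 and 151 FPKM at 96 h. *bZIP17* (Potri.016G032400) went from 28.5, 26.4 and 28.3 FPKM to 83.1, 80.04 and 83.9 FPKM. The means at 96 h were 3.28 and 2.97 times those of the control, and the rises were 1.69 ± 0.052 and 1.54 ± 0.056 (SE). Both were also higher at 96 h than at 24 h, by 1.76 and 1.35, and than at 336 h, by 1.63 and 1.09.

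Most heat shock genes on the list rose at 96 h. Small heat shock proteins and HSP70 are chaperones that bind unfolded proteins, and ClpB disaggregates them. Of 17 chaperone and heat shock factor genes tested, 14 rose, none fell and 3 were not called, with a median of 1.34. After quantile normalization 10 rose and none fell. A mitochondrial small heat shock protein (Potri.001G192600) stood at 0.511, 0.608 and 0.550 FPKM in the control and at 15.3, 12.1 and 14.4 FPKM at 96 h. *HSP70-8* (Potri.010G088600) went from 1.87, 1.5 and 1.45 FPKM to 10.1, 8.57 and 9.67 FPKM, and a chloroplastic small heat shock protein (Potri.010G053400) from 9.49, 11.2 and 9.14 FPKM to 34.8, 36.6 and 37.1 FPKM. All LN libraries stood above all control libraries, and the changes were 3.25 ± 0.085, 2.01 ± 0.085 and 1.77 ± 0.079 (SE).

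The chaperones differed from the heat shock factors in their course, a split that was made after the values were seen. All 7 listed chaperone genes rose against the control. All 7 were higher at 96 h than at 24 h, with a median difference of 2.22, and than at 336 h, with a median difference of 2.45. The study picked these genes as changed on the same libraries, so these counts are in part fixed by that choice. The 7 kept their calls against the control under quantile normalization, median-ratio scaling and limma-voom with median-ratio scaling. The class III small heat shock protein gene Potri.003G071100 had a mean of 2.33 FPKM in the control. Under LN its means were 3.25 (12 h), 2.36 (24 h), 3.71 (48 h), 15.72 (96 h) and 2.09 FPKM (336 h). The other comparisons with the control, which share the control libraries, called 1 chaperone gene up and 3 down at 12 h, where 6.21% of all genes rose and 2.62% fell. At 24 h limma called none of 6 tested, 4 of them at an unadjusted p under 0.05, with a median of -0.39, where 4.29% of all genes rose and 1.41% fell. At 48 h it called none of 6, 2 of them at such a p, with a median of -0.15, where 2.84% and 2.14% of all genes were called. Over all genes, 7138 of 22779 had such a p at 48 h and 12432 of 22792 at 24 h, so missing calls at 48 h weigh less. At 336 h 2 of 6 fell, where 8.28% of all genes rose and 4.07% fell. Of the 10 heat shock factors, 7 rose at 96 h, 3 after quantile normalization, and 2 and 1 were higher at 96 h than at 24 h and 336 h.

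GRAS proteins are a plant family of transcriptional regulators that includes SHORT-ROOT. Of 20 listed genes tested, 10 rose and none fell, with a median of 0.98, beside 8.18% and 1.84% of all genes. The list holds only GRAS genes that the study picked as changed on these libraries. After quantile normalization 8 rose. *SCL33* (Potri.001G242100) went from 4.23, 4.67 and 4.31 FPKM to 34.8, 32.7 and 33.8 FPKM. *SCL13* (Potri.006G016200), of the branch linked to phytochrome signalling in Arabidopsis, went from 19.4, 20.5 and 21.9 FPKM to 91.8, 97.3 and 94.6 FPKM. They rose by 2.69 ± 0.058 and 2.15 ± 0.063 (SE), and both were higher at 96 h than at 24 h and at 336 h, by 1.76 to 2.36.

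Relatives of the rice chitin-inducible gibberellin-responsive protein, Potri.011G131100 and Potri.001G415200, rose from means of 6.55 to 35.3 FPKM and 8.32 to 43.7 FPKM. *SCL21* (Potri.005G143900), named by the study and not on the list, rose from 2.62 to 33.7 FPKM, but stood at 52.8 FPKM at 24 h, a difference of 96 h minus 24 h of -0.63 that was not called. Of the listed GRAS genes, 7 of 20 were higher at 96 h than at 24 h and none lower, beside 3.87% and 1.26% of all genes. Against 336 h, 8 of 21 were higher and 1 lower, beside 4.96% and 2.71%.

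**Figure D3:**
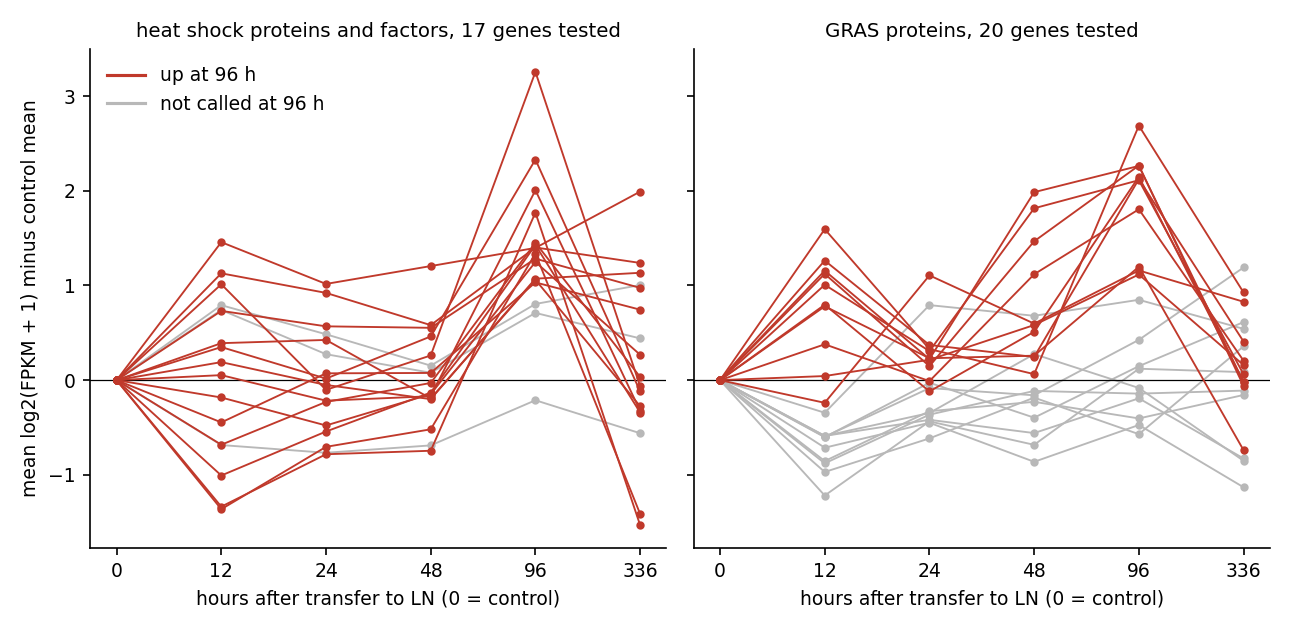
Mean log2(FPKM + 1) of each gene minus its control mean, for the control and the 5 LN times from 12 h to 336 h (n = 3 libraries per time, times evenly spaced on the axis), for 17 heat shock genes (left) and 20 GRAS genes (right). Red lines are the 14 and 10 genes that rose at 96 h and grey lines those that were not called. Most red lines have their highest point at 96 h, the time by which they were chosen.

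The study's table of phytohormone genes was held only in part, so the counts of the hormone lists cover the genes held. Of 17 jasmonate genes tested, 8 rose and none fell at 96 h, with a median of 0.98, and after quantile normalization 7 rose and 2 fell. *AOS1* (Potri.014G038700), an enzyme early in jasmonate synthesis, went from 5.77, 6.2 and 6.63 FPKM to 32.4, 34.3 and 35.1 FPKM. *TIFY10A* (Potri.006G139400), of the JAZ repressors that are induced by the hormone, went from 15.1, 14.8 and 15.6 FPKM to 68.6, 69.2 and 64.5 FPKM. The groups did not overlap, and the changes were 2.28 ± 0.065 and 2.08 ± 0.056 (SE). *OPR3* (Potri.018G065600), a later enzyme of the pathway, rose from a mean of 0.338 to 2.54 FPKM.

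Both tested Kunitz trypsin inhibitors, which block digestive proteases of herbivores, rose. Potri.004G000400 stood at 4.32, 4.22 and 3.24 FPKM in the control and at 57.6, 66.2 and 59.6 FPKM at 96 h, and Potri.007G111600 went from a mean of 0.539 to 9.34 FPKM. The rises were 3.66 ± 0.1 and 2.75 ± 0.071 (SE). Both genes were also higher at 96 h than at 24 h, by 1.34 and 1.35, while the differences from 336 h, 0.74 and 0.49, were not called. The list holds 3 genes, and the remaining 1 was below the filter at 96 h against the control. That gene was called lower at 96 h than at 24 h and at 336 h. All 3 were called up against the control at 12, 24, 48 and 336 h.

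Of 18 genes of salicylic acid defence, 9 rose and 2 fell, with a median of 1.05. *WRKY70* (Potri.016G137900), which acts between the salicylic acid and jasmonate pathways in Arabidopsis, went from 2.06, 1.93 and 1.74 FPKM to 19.5, 21.1 and 18.4 FPKM. Its mean was 2.04 FPKM at 24 h and 18.5 FPKM at 336 h, so the level reached at 96 h stood about where it was at 336 h, with a difference of 0.08. A second copy, Potri.013G090300, rose from 0.255 to 6.07 FPKM. Glutaredoxin-C9 (Potri.007G134800) rose from 2.55 to 23.0 FPKM and *SAR DEFICIENT 1* (Potri.012G054900), a regulator of salicylic acid synthesis in Arabidopsis, from 6.53 to 26 FPKM.

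The members that fell were *DIR1* (Potri.014G149900), a lipid transfer protein of systemic defence in Arabidopsis, and the methyl salicylate esterase *SABP2* (Potri.009G107300). *DIR1* had the highest level of the genes named here, at 1882, 2115 and 1912 FPKM in the control and 862, 914 and 861 FPKM at 96 h. It fell by 1.16 ± 0.065 (SE), which became -0.71 after quantile normalization, while another gene described as *DIR1*, Potri.009G112500, rose by 1.40. *SABP2* fell from a mean of 5.02 to 1.83 FPKM, a change of -1.08 that was -0.98 without control replicate 1.

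Class III peroxidases, secreted enzymes of wall stiffening and H2O2 turnover, split into a rising and a falling group. Of 46 tested, 16 rose, 12 fell and 18 were not called, with a median of 0.70. *PODN1* (Potri.016G125000) went from 5.81, 5.64 and 5.35 FPKM to 51.6, 52.7 and 49.6 FPKM, a rise of 2.99 ± 0.056 (SE). Peroxidase 72 (Potri.007G019300), linked to lignin in Arabidopsis, went from 103, 103 and 99.6 FPKM to 14.2, 13.2 and 13.4 FPKM, a fall of 2.82 ± 0.054. The groups of each gene were far apart.

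Among the other peroxidases, *POD4* (Potri.013G083600) rose from a mean of 4.28 to 23.1 FPKM. Peroxidase 9 (Potri.002G031200) fell from 96.0 to 20.1 FPKM, peroxidase 44 (Potri.013G066800) from 34.2 to 10.5 FPKM and peroxidase 11 (Potri.008G110600) from 10.4 to 2.89 FPKM. Peroxidase 72 was lower at 96 h than at 24 h and at 336 h, by -1.26 and -1.24. *PODN1* had its highest mean at 24 h among the 3 times tested against each other, 79.7 FPKM, and did not differ past the fold limit between 96 h and 24 h or 336 h.

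Glutathione S-transferases, which attach glutathione to reactive compounds, were as often lower as higher. Of 39 tested, 11 rose and 11 fell, with a median of -0.66, and after quantile normalization 7 rose and 13 fell. *GST23B* (Potri.008G175100) went from 27.2, 25.8 and 25.1 FPKM to 135, 146 and 144 FPKM. *GSTU45* (Potri.016G104500) went from 21.4, 19.2 and 18.4 FPKM to 103, 109 and 107 FPKM. The means at 96 h were 5.45 and 5.41 times those of the control, and the rises were 2.4 ± 0.06 and 2.38 ± 0.068 (SE).

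*GST23A* (Potri.008G174900) rose from a mean of 60.5 to 147 FPKM. The microsomal GST 3 gene Potri.017G140900 rose from 3.53 to 18.7 FPKM, yet stood at 155 FPKM at 24 h, a difference of 96 h minus 24 h of -2.99. Of 6 genes tested that are described as *parC*, 3 fell, 2 rose and 1 was not called. In the falling group, Potri.011G113100 and Potri.011G112900 of these went from 16.1 to 2.71 FPKM and 19.4 to 3.44 FPKM, and Potri.016G023200 from 110 to 30.4 FPKM.

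Of 19 other antioxidant enzymes, 2 rose, a share near the 8.18% of all genes. A further 4 fell, beside 1.84% of all genes, and the median was -0.31. After quantile normalization 1 rose and 3 fell. The iron superoxide dismutase Potri.015G110400, a plastid enzyme, went from 35.2, 35.1 and 32.3 FPKM to 5.29, 4.65 and 4.29 FPKM, a fall of 2.62 ± 0.077 (SE). The copper-zinc superoxide dismutase Potri.004G216700 went from 21.7, 20.9 and 18.3 FPKM to 49.6, 47.1 and 47.8 FPKM, a rise of 1.21 ± 0.073. The iron and the copper-zinc enzyme genes thus moved in opposite directions with no overlap in either. *CCS* (Potri.001G113800), the chaperone that delivers copper to the latter enzyme, rose from a mean of 4.02 to 9.80 FPKM, with a change of 1.11 that fell to 0.85 and 0.98 after quantile normalization and median-ratio scaling.

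The other members that fell were *MDAR5* (Potri.001G099600), which regenerates ascorbate, catalase-2 (Potri.005G100400) and peroxiredoxin-2E (Potri.013G102100). Their means went from 111 to 32.7 FPKM, from 45.6 to 15.9 FPKM and from 371 to 167 FPKM. The change of peroxiredoxin-2E, -1.15, was -0.97 after quantile normalization. Of 5 respiratory burst oxidases, which produce superoxide outside the cell, 1 rose, Potri.005G026200, from 3.89, 4.4 and 4.16 FPKM to 16.2, 15.2 and 17.43 FPKM.

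Germin-like and other cupin proteins rose in 7 of 13 cases and 1 fell, with a median of 1.05. Potri.T151800 and Potri.013G052100, both described as germin-like protein 1-13, rose from means of 9.07 to 62.7 FPKM and 10.3 to 66.8 FPKM. Their means at 24 h were higher, 98.4 and 113 FPKM, though not past the fold limit, and those at 336 h, 13.1 and 12.4 FPKM, were lower than at 96 h by 2.23 and 2.37. Germin-like protein 5-1 (Potri.013G000500) went from 234, 244 and 232 FPKM to 101, 106 and 101 FPKM, and it was lower at 96 h than at 24 h and at 336 h, by -1.65 and -1.79. Of 9 NmrA-type phenylpropanoid reductases 5 rose, among them leucoanthocyanidin reductase (Potri.008G116500), an enzyme of proanthocyanidin synthesis, from 73 to 205 FPKM.

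Cytokinins are made in roots in amounts that depend on the N supply, and genes of their synthesis and breakdown were among those that fell. Of the 26 cytokinin genes held and tested, 5 rose and 6 fell, with a median of -0.42. After quantile normalization, and likewise after median-ratio scaling, 3 rose and 8 fell. The cytokinin hydroxylase Potri.004G100400, which makes trans-zeatin forms, went from 17.1, 14.8 and 15.2 FPKM to 1.85, 2.33 and 1.67 FPKM. *IPT5* (Potri.008G202200), of the first step of synthesis, went from 7.07, 6.81 and 6.66 FPKM to 1.66, 1.95 and 1.42 FPKM. The control means were 8.03 and 4.08 times those at 96 h, and the genes fell by 2.5 ± 0.095 and 1.56 ± 0.079 (SE).

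Cytokinin dehydrogenase 5 (Potri.002G030500), which degrades the hormone, fell from a mean of 4.59 to 0.815 FPKM, and the response regulator *ARR3* (Potri.008G193000), of a class induced by cytokinin, from 78.0 to 31.1 FPKM. The members that rose included the cytokinin response factors Potri.001G094800 and Potri.012G032900, which are AP2/ERF proteins and are counted in that family as well. They went from 0.953 to 5.50 FPKM and from 1.48 to 7.06 FPKM.

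Of 14 gibberellin genes, 3 rose and 2 fell, and after quantile normalization none rose and 2 fell. The GA 20-oxidases Potri.002G159500 and Potri.015G134600, of a late step of synthesis, rose from means of 6.54 to 15.1 FPKM and 0.711 to 2.84 FPKM. The GA 3-oxidases Potri.006G247700 and Potri.001G176600, of the last step, fell from 11.8 to 4.10 FPKM and 9.59 to 4.22 FPKM. The change of the latter, -1.02, was -0.997 without control replicate 2 and -0.99 without LN replicate 3.

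Of 10 GASA and snakin peptides, which are gibberellin-regulated in several plants, 5 rose and 1 fell, after quantile normalization 4 and 3. *GASA1* (Potri.002G022500) rose from 1.18, 0.260 and 0.770 FPKM to 7.58, 10.8 and 6.50 FPKM, and a snakin-2 gene, Potri.015G071500, from a mean of 3.08 to 13.2 FPKM. Gibberellin-regulated protein 4 (Potri.017G083000) was the most abundant of those named, with a rise from 78.0 to 238 FPKM. Of 30 auxin genes, 6 rose and 1 fell, but after quantile normalization none rose and 1 fell. *ARF9* (Potri.014G100100), an auxin response factor, was the member that fell, from 4.99, 4.78 and 4.32 FPKM to 0.724, 0.863 and 0.650 FPKM, by 1.71 ± 0.071 (SE). Auxin influx carriers described as transporter-like protein 5 (Potri.009G132100 and Potri.004G172800) rose from 3.46 to 9.55 FPKM and 3.51 to 9.01 FPKM.

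Few or no members of 3 further lists were called by limma on the log2(FPKM + 1) scale. None of 10 circadian clock genes was called, at changes of -0.81 to 0.85 (median 0.23), although 8 had an unadjusted p under 0.05 by limma, and limma-voom on recovered fragments called 1 down. None of 14 plastid and photosynthesis genes was called at 96 h, at a median of -0.22, with 10 at an unadjusted p under 0.05 and 1 called down by limma-voom. At 336 h, in a comparison that shares the control libraries, 11 of these 14 fell, where 4.07% of all genes fell. Against 336 h, 7 of 14 were higher at 96 h, beside 4.96% of all genes. Of 15 root cell identity genes, 2 rose, beside 8.18% of all genes, and none fell. Limma-voom with median-ratio scaling, whose filter differs, tested 23 of them and called 7 up and 2 down. Of all 25130 genes it tested, it called 2999 up and 854 down. *SOMBRERO* (Potri.010G176600), of the root cap, went from 1.70, 1.92 and 1.36 FPKM to 5.45, 6.05 and 5.54 FPKM. *ETC1* (Potri.004G021300), of root hair patterning, went from 4.64, 2.76 and 4.34 FPKM to 10.6, 15.3 and 12.2 FPKM.

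**Figure D4:**
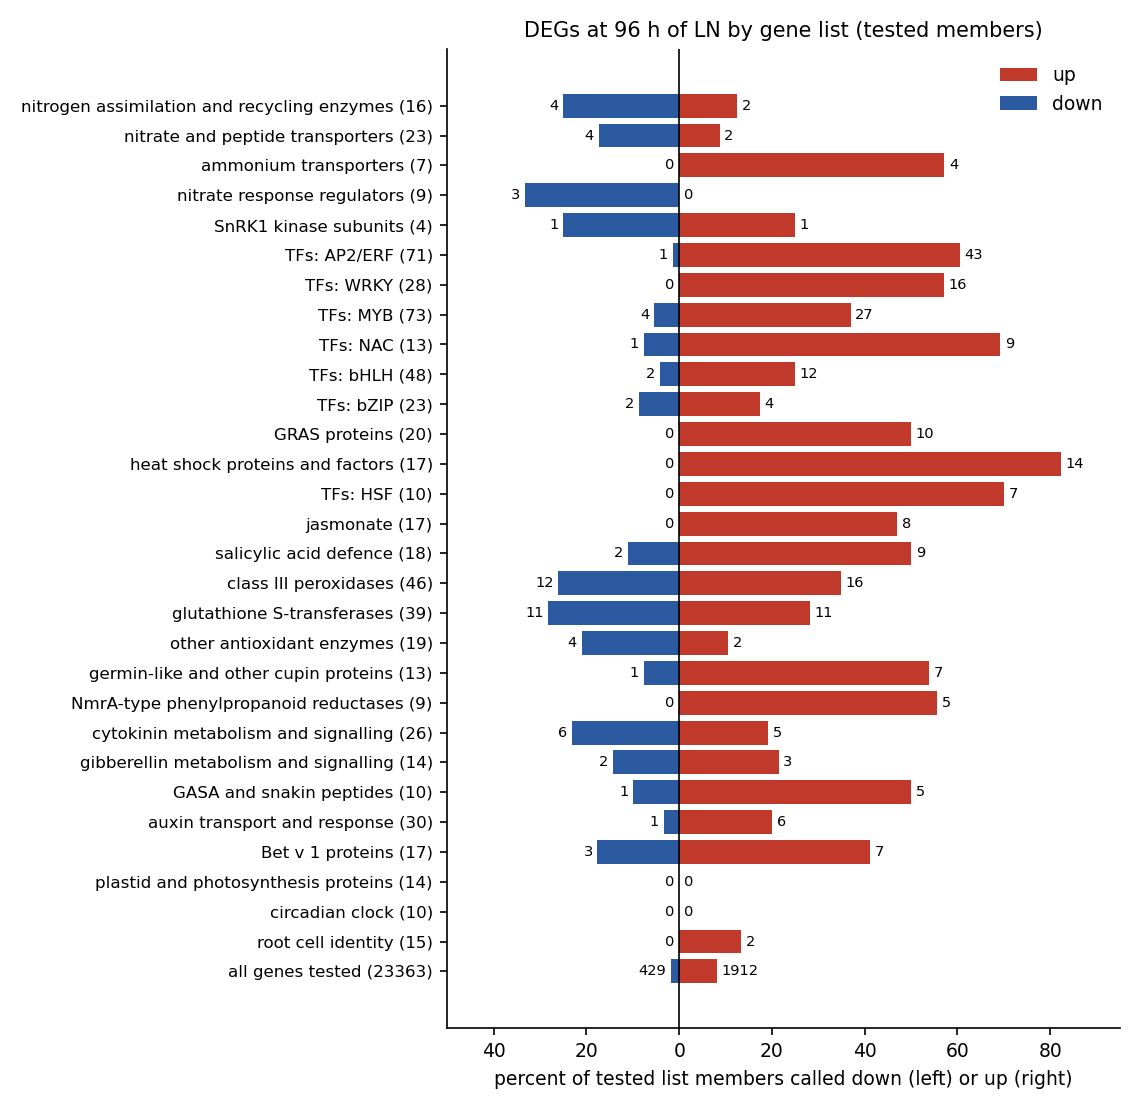
Percent of the tested members of each gene list called up (red, right) or down (blue, left) at 96 h of LN against control, with the number of genes at each bar and of members tested in brackets. All 23363 genes tested stand at the bottom, at 8.18% up and 1.84% down. The heat shock list has the largest share up of the lists shown, 14 of 17, and the nitrate response regulators the largest share down, 3 of 9.

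Over all the lists, 296 of 895 genes tested rose and 85 fell, with a median of 0.55, beside 8.18% and 1.84% of all genes tested, and the genes were picked by the study as changed on these libraries. Of 133 genes examined one by one, most of them described above, 123 were called. Apart from small lists and genes that the study names, they were chosen by their call, so this count largely follows from the choice. None of the 123 had overlapping groups, as was so for 65.8% of all genes tested. Their adjusted p ran from 6.45e-09 to 0.000223 (limma, Benjamini-Hochberg) and their standard errors from 0.049 to 0.23. The largest changes in all genes included identifiers without an annotation here. Potri.002G001400 rose from 1.80, 2.63 and 1.55 FPKM to 113, 115 and 116 FPKM and Potri.017G135000 from a mean of 2.14 to 118 FPKM. Potri.011G041300 fell from 59.5, 49.3 and 55.9 FPKM to 0, 0.468 and 0 FPKM, and Potri.009G034600 from 166 to 3.53 FPKM.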

How the data were processed

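RNA was sequenced from roots of *P. ussuriensis* in 18 libraries, 1 file each. The authors deposited FPKM values. Per the labels and the study's methods, clean paired-end reads were aligned against the genome of *P. trichocarpa*. The methods name Bowtie2 and TopHat2, and the submitters' processing notes name Bowtie2 2.2.3 and HISAT2 2.1.0. Not given in the sources used here were the genome build, the counting tool and its strand setting.

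The 3 libraries at 96 h were compared with the 3 control libraries on the log2(FPKM + 1) scale with limma (version 3.58.1, R version 4.3.3), with Benjamini-Hochberg adjustment, and likewise with those of 24 h and 336 h. Replicates are labelled as biological, but no source says whether they came from separate plants or pools, so p-values measure the spread between these libraries. All FPKM values were within 0.001 of a whole number of fragments (100% of values above 0), and these fragments gave the totals and the limma-voom alternatives. The fits were also run on simulated data with a set of genes changed by known folds. No shift of the bulk of genes was set there, so that run does not bear on the choice of scaling. Further software was pandas 2.3.3 and numpy 2.4.6 under Python 3.11.15, and matplotlib 3.10.9 for plots.

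The members and the lists were chosen with earlier results of these data known. Lists were built from the gene tables of the study, of which the phytohormone table was held only in part, so that lists drawn from it (hormone, GRAS, Bet v 1, oxygenase, clock, plastid and receptor kinase genes) count only the genes held. A gene named is often 1 of several with its description, whose calls can differ. Genes named are the 5 largest rises and the 5 largest falls at a mean of at least 5 FPKM (at most 2 unannotated per direction), up to 4 per list and direction at a mean of at least 1 FPKM, and genes that the study names, with those described here a selection of them. Alternatives were another pseudocount (0.1), no filter, quantile normalization, median-ratio scaling, a variance trend, 1 fit over all 18 libraries, a block for the replicate number, other thresholds, limma-voom and each library left out. RT-qPCR values, phenotypes and the 6 h time point that the labels list were not analysed here, nor were the fold changes in the study's tables.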

Additional observations from a re-analysis of the deposited data

Results flagged for a closer look

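Of the genes examined one by one, the change of 2 against the control went in opposite directions at 96 h and 336 h, past the thresholds at both times and in the direct comparison of the 2 times, which share the same control libraries. The chloroplastic small heat shock protein Potri.010G053400 changed by 1.77 at 96 h and by -1.53 at 336 h, a difference of 96 h minus 336 h of 3.30 (adjusted p = 2.05e-06, limma). Its means were 9.94 FPKM in the control, 36.2 at 96 h and 2.84 at 336 h. The snakin-2 gene Potri.002G022600 changed by -1.02 at 96 h and by 1.86 at 336 h, a difference of -2.88, with means of 4.14, 1.53 and 17.7 FPKM. Its change at 96 h was -0.94 without control replicate 3 and -0.95 without LN replicate 1, where the gene was not called. Another chaperone of the heat shock list that was not among those genes, the peroxisomal small heat shock protein Potri.017G130700, changed by 1.34 at 96 h and by -1.41 at 336 h, a difference of 2.75 that was also called.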

How the results depend on the processing

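The counts of 1912 rising and 429 falling genes depended on the scale and the limits. A pseudocount of 0.1 gave 2976 rising genes and quantile normalization 1268. Limma-voom on the recovered fragments gave 3793 rising genes with library totals and 2999 with median-ratio scaling, where 854 fell. With no limit on the fold change, 9690 rose and 4110 fell. Leaving out 1 library at a time gave 1918 to 1949 rising and 419 to 444 falling genes. The shift of the median level, 0.28, was 0.19 as a mean over genes and 0.22 over the genes tested, and 0.26 to 0.29 with 1 library left out. The counts for 96 h against 24 h (909 and 295) and against 336 h (1180 and 645) stayed within 1.5 times under the alternatives run on them. With the replicate number as a block, 1912 genes rose and 428 fell. The numbers did not pair the libraries, since deviations of same-numbered libraries correlated at -0.03, 0.00 and 0.04.

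Of the 123 genes called among 133 examined one by one, 103 kept the call under every alternative and none changed direction. Quantile normalization ended 16 calls, median-ratio scaling 7, limma-voom with median-ratio scaling 2, and leaving out a library up to 4. Over the alternatives, the highest adjusted p of these genes was 0.0488. Near the lowest values depth is a limit, since 3 fragments in a gene of median length amount to about 0.1 FPKM, and figures from fragments cover counting error only.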

Other observations

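Genes outside the lists described so far included *WOX4* (Potri.002G124100), a regulator of the vascular cambium in Arabidopsis. It rose from 8.29, 7.21 and 7.68 FPKM to 19, 21.3 and 20.1 FPKM, and the LN libraries all stood above the control libraries. *WOX4* was also higher at 96 h than at 24 h and at 336 h, by 1.13 and 1.51. Of 2 genes tested that are described as galactinol synthase 1, the first enzyme of raffinose synthesis, 1 rose. Potri.002G191600 went from 4.87, 5.64 and 5.76 FPKM to 20.4, 22.4 and 21.6 FPKM, and was higher at 96 h than at both other times, by 2.26 and 2.18. Potri.005G006800 stood at means of 0.951 and 1.06 FPKM, a change of 0.079 that was not called.

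Of 17 Bet v 1 proteins, a family of small ligand-binding proteins, 7 rose and 3 fell. Copies described as *MLP43* went in opposite directions. Potri.004G020100 rose from a mean of 3.29 to 19.9 FPKM, while the far more abundant Potri.008G131100 fell from 895 to 376 FPKM, a change of -1.25 that was -0.85 after quantile normalization.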
